A study of Mus musculus with 2 samples.

Results

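Mir219a-2, Mir219a-1 and Mir338 are the mouse genes of miR-219a and miR-338, microRNAs best known from oligodendrocytes, and they were examined here in embryonic mouse midbrain at 12.5 days. They were found by their Ensembl identifiers, whatever their counts, and are 3 of the 1973 microRNA genes in the deposited tables. All 3 were measured with at least 10 reads in both libraries. The series holds 1 group of 2 biological replicates of strain B6NCrl, with both sexes pooled. Midbrains of 88 embryos were pooled for replicate 2 and those of 120 embryos for replicate 1, so differences between single embryos cannot be seen. The labels state no treatment, transgene or second tissue. The questions were therefore how much of each microRNA was present, how the 2 Mir219a genes compared, and how far the replicates differed.

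As background, a microRNA gene is transcribed as a hairpin, from which a 5p and a 3p arm are cut. The arm kept in the silencing complex pairs with target transcripts mainly through its seed, bases 2 to 8. In mice, miR-219 and miR-338 accumulate as oligodendrocyte precursors leave the cell cycle and begin to make myelin. They repress transcripts of the progenitor state, such as Sox6 and Hes5. Midbrain tissue of this age consists mostly of dividing neural progenitors and young neurons. The tables hold microRNA genes only, so oligodendrocytes could not be looked for by the usual messenger RNAs, and in whole tissue a small number of cells with much microRNA and a large number with little cannot be told apart.

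The 3 hairpins are shown because reads that fit more than 1 place were assigned to no gene, and the 2 Mir219a loci hold a stretch in common. They are RefSeq sequences on GRCm38.p6, written 5′ to 3′, with the mature arms that RefSeq annotates in capitals.
Mir219a-2: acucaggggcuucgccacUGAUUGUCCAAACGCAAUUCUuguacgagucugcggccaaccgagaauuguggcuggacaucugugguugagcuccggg
Mir219a-1: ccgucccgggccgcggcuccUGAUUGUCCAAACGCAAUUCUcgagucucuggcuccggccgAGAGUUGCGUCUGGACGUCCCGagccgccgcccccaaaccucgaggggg
Mir338: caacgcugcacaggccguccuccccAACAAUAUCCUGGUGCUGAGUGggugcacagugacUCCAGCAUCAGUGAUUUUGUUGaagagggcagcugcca
The 5p arm, miR-219a-5p, is the same 21 bases in both Mir219a hairpins. The longest run that the 2 hairpins share is 22 bases, the arm with 1 base before it. A read made of nothing more than this run fits both loci equally well, whereas a read that goes past it can be placed. Of the 20-base windows of each hairpin, 3 of 78 in Mir219a-2 and 3 of 91 in Mir219a-1 also occurred in an annotated hairpin elsewhere, all of them within that run. For Mir338 the count was 0 of 79 windows. The rest of the genome was not searched.

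The 3p arms of the Mir219a loci can be told apart by sequence. RefSeq annotates miR-219a-1-3p, and the best ungapped match to it in the other hairpin lies over bases 62 to 83, where 15 of 22 bases are the same. Capitals mark the bases that differ.
miR-219a-1-3p: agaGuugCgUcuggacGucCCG
Mir219a-2, bases 62 to 83: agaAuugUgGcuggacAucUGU
The longest stretch without a difference is 6 bases, so no read of usual microRNA length from this side fits both loci exactly. The counts of Mir219a-2 and Mir219a-1 can thus hold reads of the 3p side and longer reads of the 5p side, but not 5p reads that lie within the shared run. The tables give 1 count per gene, so the 2 arms cannot be counted separately.

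**Figure D1:**
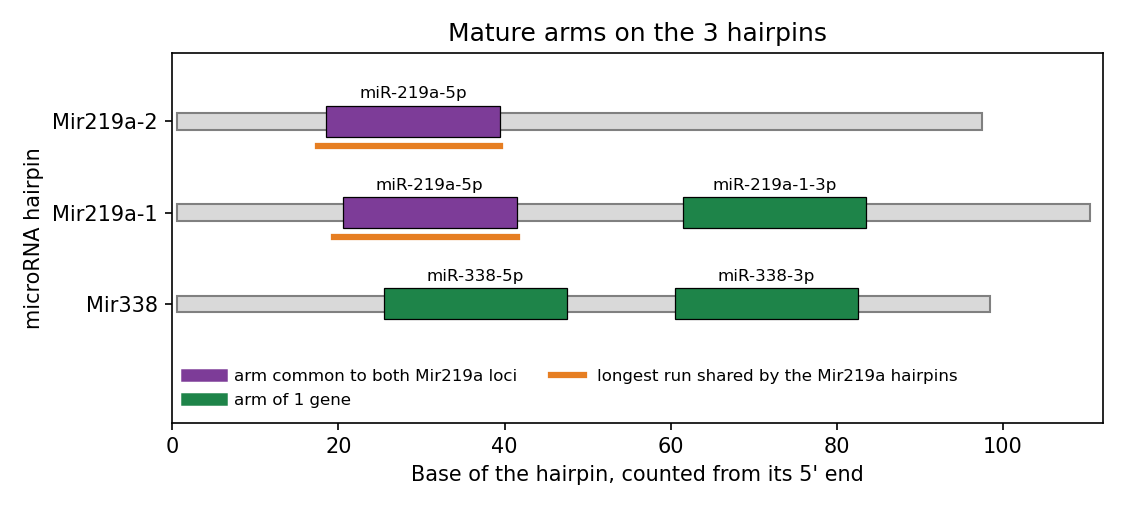
Mature arms annotated by RefSeq on the hairpins of Mir219a-2, Mir219a-1 and Mir338, plotted against the base of the hairpin counted from its 5′ end; purple marks the 5p arm common to both Mir219a loci, green an arm made by 1 gene, and the orange line the 22-base run shared by the Mir219a hairpins. The shared run covers bases 18 to 39 of Mir219a-2 and 20 to 41 of Mir219a-1.

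The mature arms that RefSeq annotates fall into 4 seeds, in capitals here, with miR-219a-5p made by both Mir219a loci. RefSeq annotates no 3p arm for Mir219a-2, so a seed from that side is not covered.
miR-219a-5p: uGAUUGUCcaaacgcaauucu
miR-219a-1-3p: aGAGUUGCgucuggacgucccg
miR-338-5p: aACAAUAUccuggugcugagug
miR-338-3p: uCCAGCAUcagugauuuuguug
Among the 1738 mature entries of the RefSeq table, no gene other than these 3 carried any of the 4 seeds. The seed of miR-219a-5p differs from both seeds of Mir338.

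The 3 genes lie on different chromosomes, all on the minus strand of mm10. Mir219a-2 (ENSMUSG00000065485.1), at chr2:29845631-29845727, overlaps no gene of its own strand and lies 629 bases from the end of Urm1, which encodes a ubiquitin-like protein and lies on the other strand. Mir219a-1 (ENSMUSG00000065555.1), at chr17:34024983-34025092, lies 303 bases from Ring1, which encodes a Polycomb protein, and 941 bases from H2-Ke6. It also overlaps the single exon of the long non-coding gene Gm26940. Mir338 (ENSMUSG00000065600.1), at chr11:120014765-120014862, lies in Aatk, which encodes a neuronal kinase, and overlapped none of its 77 annotated exon records, so it is intronic. Each locus carries a microRNA annotated on the opposite strand, Mir219b over Mir219a-2, Mir219c over Mir219a-1 and Mir3065 over Mir338, and none of these 3 has a row in the tables.

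The deposited values are raw read counts. Replicate 2 held 2805487 reads on the own strand of microRNA genes and replicate 1 held 4629302, so values of replicate 1 carry the smaller counting error. The levels below are CPM, counts per 1000000 of these reads. Sequenced molecules were shorter than 30 nucleotides, so a read is a whole small RNA and levels were not divided by gene length. A count of 3, taken as the limit that a count of 0 allows, corresponds to 1.07 CPM in replicate 2 and 0.648 CPM in replicate 1. All intervals given are 95% Wilson intervals of the share of reads, and cover counting error only.

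Mir219a-2 was the most abundant of the 3 genes in both libraries. It had 10462 reads in replicate 2, or 3729 CPM (interval 3658 to 3801), and 10905 reads in replicate 1, or 2356 CPM (interval 2312 to 2400.2). Its mean was 3042 ± 971 CPM (SD, n = 2), and it stood at rank 54 in replicate 2 and 69 in replicate 1 among the 1973 genes. Only 746 of the 1973 genes had a read in either library. Replicate 2 was the higher one, and the intervals were far apart.

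Mir219a-1 stood in the middle, with 3059 reads in replicate 2, or 1090.4 CPM (interval 1052 to 1129.7), and 5994 reads in replicate 1, or 1295 CPM (interval 1262 to 1328). The mean was 1193 ± 145 CPM (SD, n = 2), and the ranks were 94 and 88. Here replicate 1 was the higher one, again with intervals that did not overlap.

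Mir338 was the lowest, with 251 reads in replicate 2, or 89.5 CPM (interval 79.1 to 101), and 465 reads in replicate 1, or 100.4 CPM (interval 91.7 to 110.0). Its mean was 94.96 ± 7.76 CPM (SD, n = 2), at ranks 226 and 224. The intervals of the replicates overlapped. Both counts were far above the limit of 3, so Mir338 was detected at a low but well-measured level.

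The order Mir219a-2, Mir219a-1, Mir338 was thus the same in both replicates, and no value of 1 gene reached into the range of another. Mir219a-2 had 41.7 times the reads of Mir338 in replicate 2 and 23.5 times in replicate 1, while Mir219a-1 had 12.2 and 12.9 times. Summed over both loci, the placed Mir219a reads gave 4819 CPM in replicate 2 and 3650.4 CPM in replicate 1. Reads confined to the shared 5p run are missing from this sum. Reads that aligned to several places numbered 2242911 in replicate 2 and 3589504 in replicate 1, from all genes and other sequences together, and the part that came from miR-219a-5p was not measured. With those reads added to the total, the mean levels were 1699.6 CPM for Mir219a-2, 668 CPM for Mir219a-1 and 53.1 CPM for Mir338.

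**Figure D2:**
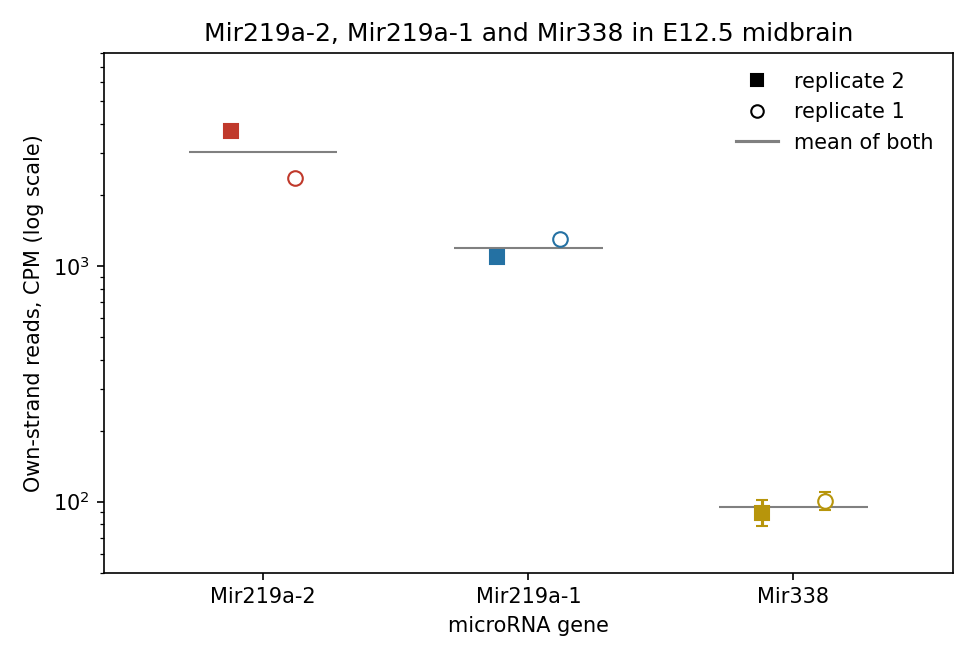
Own-strand reads of Mir219a-2, Mir219a-1 and Mir338 in CPM on a log scale, with replicate 2 as filled squares, replicate 1 as open circles, 95% Wilson intervals as bars (smaller than the symbols for the Mir219a loci) and the mean as a grey line. The replicates stand at 3729 and 2356 CPM for Mir219a-2, 1090.4 and 1295 CPM for Mir219a-1, and 89.5 and 100.4 CPM for Mir338.

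Within a library, the ratio of the 2 Mir219a loci does not depend on library size. In replicate 2, Mir219a-2 had 3.42 times the reads of Mir219a-1, a log2 ratio of 1.77 ± 0.03 (counting SE). In replicate 1 it had 1.82 times, a log2 ratio of 0.86 ± 0.02. Mir219a-2 therefore gave the larger count in 2 of 2 libraries, with a mean log2 ratio of 1.32 ± 0.64 (SD, n = 2). As a share of the reads of both loci, Mir219a-2 held 77.4% in replicate 2 (interval 76.7 to 78.1%) and 64.5% in replicate 1 (interval 63.8 to 65.2%). An exact permutation test over 2 libraries cannot give a two-sided p below 0.5, so the direction rests on the counts of each library.

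The size of the ratio was not stable between the replicates. The log2 ratio of Mir219a-2 over Mir219a-1 was higher in replicate 2 by 0.91 ± 0.04 (counting SE), which is 1.88 times. Fisher's exact test on the 4 counts, two-sided, gave p = 7.18e-133. This test sets the shift against counting noise in these 2 libraries and does not compare conditions.

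The shift came from opposite movements of the 2 loci. Against all other reads, Mir219a-2 was higher in replicate 2, with a log2 ratio of replicate 2 over replicate 1 of 0.66 ± 0.02 (counting SE; Fisher's exact test with Benjamini-Hochberg adjustment over 380 genes, adjusted p = 2.06e-243). Mir219a-1 was lower in replicate 2, at -0.25 ± 0.03 (adjusted p = 2.73e-14 by the same exact test). Mir338 was not called, at -0.17 ± 0.11 (adjusted p = 0.22 by the same exact test). Such calls were common: 54.2% of the 380 genes tested passed, 27.1% as higher and 27.1% as lower in replicate 2, so 2 called genes of 3 is close to that background. Genes with more reads were called more often, with 196 of 270 called at a minimum of 100 counts in both libraries. All 380 genes had a median log2 ratio of 0.04, and 46 of them moved in either direction by at least as much as Mir219a-2. By log2 ratio, Mir219a-2 was number 27 from the top of the 380, and Mir219a-1 was number 81 and Mir338 number 117 from the bottom.

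**Figure D3:**
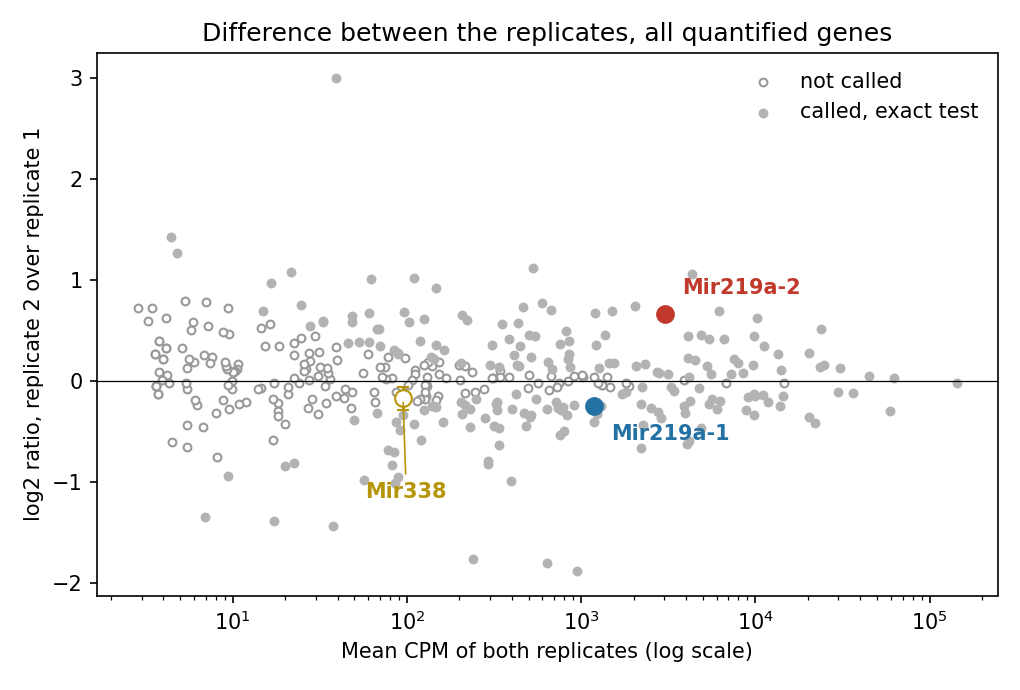
Log2 ratio of replicate 2 over replicate 1 against mean CPM (log scale) for the 380 genes with at least 10 reads in both libraries; filled points were called by the exact test, open points were not, and bars on the coloured points are the counting SE. Mir219a-2 lies at 0.66, Mir219a-1 at -0.25 and Mir338 at -0.17.

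Other microRNAs with duplicated genes gave a setting for this shift. Mir128, a microRNA of neurons, and Mir138, which has been studied in both neurons and oligodendrocytes, are built like Mir219a, with 1 mature arm common to both gene copies and another arm that differs. The Mir128 copies kept their ratio: Mir128-1 held 69.3% of the reads of both in replicate 2 (interval 66.5 to 72.0%) and 70.4% in replicate 1 (interval 67.7 to 73.0%), and the log2 ratio of its reads over those of Mir128-2 differed between the replicates by -0.07 ± 0.13 (counting SE). Both copies were called higher in replicate 2. The Mir138 copies did not keep theirs: Mir138-1 held 53.7% in replicate 2 (interval 50.7 to 56.6%) and 61.5% in replicate 1 (interval 59.7 to 63.3%), and its log2 ratio over Mir138-2 differed by -0.47 ± 0.10. Both Mir138 copies were called lower in replicate 2. In Mir219a alone of these 3 pairs, 1 copy was called higher and the other lower. No test over samples is possible.

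**Figure D4:**
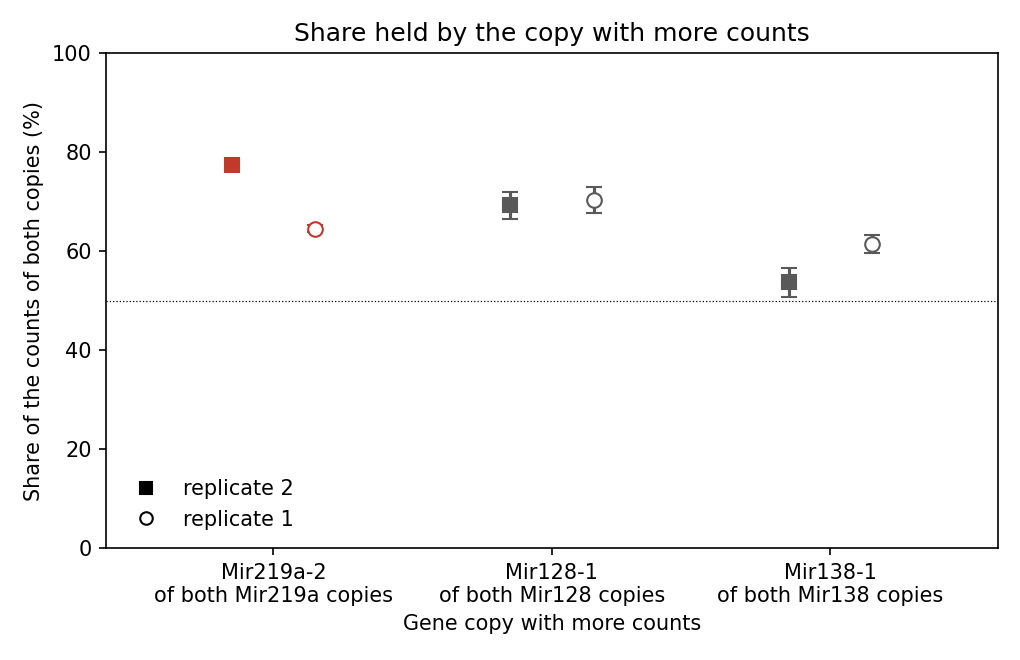
Share of the reads of both gene copies held by the copy with more reads, in percent, for Mir219a, Mir128 and Mir138, with replicate 2 as filled squares, replicate 1 as open circles and 95% Wilson intervals as bars; the dotted line marks equal shares. Mir219a-2 held 77.4% and 64.5%, Mir128-1 69.3% and 70.4%, and Mir138-1 53.7% and 61.5%.

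Mir9 and Mir124a are made by neural progenitors and neurons, also from several gene copies, and both annotated mature arms of Mir9 are the same in all its copies. Mir9-3 had 691 reads in replicate 2 and 1463 in replicate 1, and Mir9-2 had 8 and 22. Of the placed reads of Mir9-3 and Mir9-2 together, Mir9-3 held 98.9% in replicate 2 (interval 97.8 to 99.4%) and 98.5% in replicate 1 (interval 97.8 to 99.0%). Mir9-1 was not found by symbol and is not part of this share. The log2 ratio of Mir9-3 over Mir9-2 differed between the replicates by 0.38 ± 0.60 (counting SE). This error is too wide to show or exclude a shift of the size seen in Mir219a. Mir124a-2 had 40 and 69 reads, Mir124a-3 had 15 and 25, and Mir124a-1 had 3 and 28. The log2 ratio of Mir124a-2 over Mir124a-3 differed by -0.05 ± 0.55 (counting SE), likewise an error too wide to show or exclude such a shift. Mir124a-1 did change its share of the placed Mir124a reads. It held 5.17% in replicate 2 (interval 1.77 to 14.1%) and 23.0% in replicate 1 (interval 16.4 to 31.2%), with only 3 reads in replicate 2.

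Among the microRNAs of the neural list, Mir92b was far above Mir219a-2, at a mean of 23684.5 ± 5941 CPM (SD, n = 2). The placed reads of Mir9-3, at 281 ± 49.3 CPM, and of the Mir128 and Mir124a copies were below it. Reads confined to an arm common to copies of Mir9 or Mir128 were assigned to no gene. The arms of the Mir124a copies were not compared here, so reads of Mir124a may be missing in the same way. This order therefore covers placed reads and does not rank the microRNAs themselves. Within the neural list, Mir137 and Mir153, both known from neurons, were nearest to Mir219a-2 in level, a pair picked after the values were seen. In replicate 2 Mir219a-2, at 3729 CPM, was above Mir137 at 3564 CPM and Mir153 at 3286 CPM. In replicate 1, at 2356 CPM, it was below Mir137 at 4225 CPM and Mir153 at 3512 CPM. The order of these 3 genes therefore changed with the replicate. In mean rank over all genes, Mir219a-2 was 61, between Mir351 (3133 ± 109 CPM, SD, n = 2) and Mir484 (2878 ± 507 CPM). Mir219a-1 was 92, between Mir181a-2 (1205 ± 394 CPM) and Mir188 (1189 ± 234 CPM). Mir338 was 223, between Mir128-2 (96.3 ± 31.7 CPM) and Mir666 (94.5 ± 15.2 CPM). These neighbours were chosen by mean level, so their closeness to the members follows from the choice.

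The genes most like each member over the 2 libraries were found by the distance between their log2 CPM values, which describes the level in only 2 samples. For Mir219a-1 they were Mir154 (1096 CPM in replicate 2 and 1264 CPM in replicate 1), Mir134 and Mir434, at distances from 0.04 to 0.09. Those nearest to Mir338 were Mir666 (83.8 and 105 CPM), Mir495 and Mir27a, at distances from 0.12 to 0.20. Mir219a-2 had no gene so close: its nearest were Mir379 (2885 and 2728 CPM), Mir351 and Mir139, at distances from 0.43 to 0.44.

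The members were then placed among microRNAs that have been described in oligodendrocytes or their precursors, many of which are also made by other cells. Of 20 such genes found beside the members, 19 had at least 10 reads in both libraries, and Mir184 had 3 reads in replicate 2 and 7 in replicate 1. Mir17, of the cluster that promotes division, was highest at 53148 CPM in replicate 2 and 65279.8 CPM in replicate 1. It was followed by Mir23b (12432 and 8038 CPM), Mir92-1 (7396 and 7051 CPM), Mir23a (7633 and 4695 CPM) and Mir125a (6199 and 4626 CPM). In mean level, Mir219a-2 came after these 5 and Mir219a-1 after it, followed by Mir27b at 906 CPM in replicate 2 and 822 CPM in replicate 1. Here too the order covers placed reads only. Reads within an arm common to the copies of Mir219a or of Mir138 are missing from it. The remaining 14 genes ranged in mean level from 1.29 CPM for Mir184 to 468 CPM for Mir7-1, with Mir138-1 at 292 ± 110.1 CPM and Mir138-2 at 208 ± 32.9 CPM (SD, n = 2).

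Between the replicates, 9 of the 19 genes were called higher and 4 lower in replicate 2 by the exact test, and 6 were not called, where 27.1% of all 380 genes were called in each direction. The median log2 ratio of the 19 genes was 0.14, against 0.04 for all 380 genes. Mir23a, at 0.70 ± 0.01 (counting SE), and Mir23b, at 0.63 ± 0.01, moved about as far as Mir219a-2, and Mir138-1 moved the other way, at -0.79 ± 0.07.

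Markers of other regions and cell types differed between the 2 libraries beside these results, and their part in the Mir219a values was not tested. The counts of called genes stand against 27.1% of all 380 genes called in each direction. For choroid plexus microRNAs, all 4 genes were called lower in replicate 2, and their sum was 426 CPM in replicate 2 and 1446 CPM in replicate 1. The Hox cluster microRNAs of hindbrain and spinal cord gave 419 and 225 CPM, with 4 of 4 tested genes called higher and Mir196a-1 at 0 in both libraries. The mural and mesenchymal list gave 23591 and 15707 CPM with 6 of 7 called higher, and the epithelial list 3549 and 2764 CPM with 6 of 7 called higher. Liver microRNA Mir122 stood at 69.5 and 8.64 CPM, endothelial Mir126a at 26243 and 23434 CPM, leukocyte genes at 769 and 607 CPM with 3 of 4 called higher and 1 lower, and erythroid genes at 271 and 413 CPM with 1 of 3 called higher and 1 lower. The neural list has no other tissue to be set against, so it does not check the midbrain label. This list gave 35392 and 27816 CPM with reads in both libraries for 10 of 11 genes. Of its 8 tested genes, 3 were called higher, 3 lower and 2 not called, with a median log2 ratio of -0.04. Mir92b made up most of the neural sum, at 27886 CPM in replicate 2 and 19483 CPM in replicate 1.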

How the data were processed

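Small RNA of midbrain was sequenced in 2 libraries. The deposited tables hold raw counts per microRNA gene, made on mm10 with annotation release M4 per the deposited read-me files; no source used here names the aligner or counting program. Own-strand counts were used, which made up 97.5% (replicate 2) and 97.6% (replicate 1) of either-strand counts. Rows that name no gene took 58.2% of 6717347 reads in replicate 2 and 56.9% of 10743770 in replicate 1, multimapping reads 33.4% in each, and stayed out of totals and tests.

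Symbols and positions came from GENCODE M21 on GRCm38, the assembly of mm10, with 1894 of 1973 identifiers matched, and sequences for 3 of 3 members from RefSeq. Genes with at least 10 counts in both libraries were compared by two-sided Fisher's exact tests with Benjamini-Hochberg adjustment at 0.05 (SciPy 1.17.1). The procedure was tested on simulated Poisson counts, whose only noise was counting noise. That test does not give the error rate for these libraries. edgeR 4.0.16 and DESeq2 1.42.0 served only for alternative normalization factors, since 1 group leaves no groups to compare. A chi-square of 161 per degree of freedom showed that the libraries differed beyond sampling noise.

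The text names the members, their antisense and adjacent genes, neighbours by rank, the 3 nearest genes by level, the copies of Mir128, Mir138, Mir9 and Mir124a, and the most abundant genes of the oligodendrocyte-related and marker lists; Mir7-1, Mir184, Mir153 and Mir196a-1 were added from those lists after their values were seen. Members and lists were chosen with earlier results of these data known. Mir9-1, Mir142 and Mir297a-1 were not found by symbol and are not analysed here.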

Additional observations from a re-analysis of the deposited data

Results flagged for a closer look

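Reads on the strand opposite to Mir219a-1 are outside the own-strand counts and were above the limit of 3 that a count of 0 allows. They numbered 15 in replicate 2, or 5.35 CPM, and 15 in replicate 1, or 3.24 CPM. As a share of the reads on both strands, this was 0.488% in replicate 2, with a 95% Wilson interval of 0.296 to 0.804%, and 0.250% in replicate 1, with an interval of 0.151 to 0.411%. Mir219c is annotated on that strand. Of the 380 genes tested, 9 had more than 3 opposite-strand reads in both libraries and 338 had none in either. At Mir219a-2 there were 3 such reads in replicate 2 and 1 in replicate 1, and at Mir338 there were 2 in each, none of them above the limit.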

How the results depend on the processing

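The calls on Mir219a-2, Mir219a-1 and Mir338 were on the same side of the threshold under all 6 alternatives. These were reads of either strand, a total without Mir99a, TMM or DESeq2 factors, and looser or stricter count minimums. With TMM or DESeq2 factors, a normal test of the log2 ratio over its counting SE replaced the exact test. The count minimums left the log2 ratios of the members as they were and changed only the adjustment of p. The log2 ratios ranged from 0.63 to 0.66 for Mir219a-2, from -0.28 to -0.25 for Mir219a-1 and from -0.20 to -0.16 for Mir338, with adjusted p from 0.12 to 0.37 for the last. Between 196 and 214 genes were called in all, but the share called changed with the count minimum. With at least 100 counts in both libraries, 196 of 270 genes tested were called. With at least 1 count in either library, 199 of 746 were called. The levels moved by construction when the total was changed. With multimapping reads added they were 1699.6 CPM for Mir219a-2, 668 CPM for Mir219a-1 and 53.1 CPM for Mir338, and without Mir99a 1392 CPM for Mir219a-1 and 111 CPM for Mir338. Leaving out a replicate gave the single-library values in the report. Counting limits Mir338 most, at 251 and 465 reads. No paired analysis was possible because the series has 1 group.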
